A study of Mus musculus with 6 samples.

Results

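Sites of Eomes binding were described for 33 genes of glycolysis and nutrient uptake in mouse natural killer (NK) cells. The genes encode the enzymes that carry glucose to pyruvate and lactate, 3 enzymes of the pentose phosphate pathway, the transcription factor Hif1a, and carriers of sugar, lactate and amino acids. They were chosen by function, with earlier results of these lists known. The sites of each gene were the peaks whose deposited gene symbol was that gene. Of 125057 rows in 3 peak lists, 304 named a member, and the 33 members were set beside all 21887 protein-coding genes of the gene table. A reproducible region of the deposited lists was assigned to 29 members, against 44.8% of all protein-coding genes.

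Glycolysis splits glucose into pyruvate and makes ATP without oxygen, and lactate dehydrogenase turns pyruvate into lactate so that the pathway can go on. The hexokinases, the phosphofructokinases and pyruvate kinase catalyse its irreversible steps, and the pentose phosphate pathway branches off to make NADPH and ribose. NK cells raise glucose and amino acid uptake when cytokines such as IL-15 drive their growth, and Eomes is a T-box transcription factor that directs NK cell maturation.

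The study mapped Eomes by chromatin immunoprecipitation and sequencing (ChIP-seq), in which an antibody pulls down DNA fragments bound by a protein. All 6 libraries came from wild-type C57BL/6 mice aged 8 to 12 weeks, whose splenocytes were pooled before NK cells were purified and then kept in culture with IL-15 at 100 ng/mL over 4 days. Each of 3 separate experiments gave 1 library immunoprecipitated with an anti-Eomes antibody and 1 input library of DNA that did not go through precipitation, and 1 peak list was deposited for each pair. Every group was IL-15-expanded and wild type, so no condition could be compared, and pooling hides differences between animals. Peaks do not measure expression, so the NK cell label was not checked against marker transcripts.

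Each list gave a peak's pileup, taken from its column name to be the number of immunoprecipitated fragments at the summit, and its fold enrichment over background, both the authors' own values. Where an interval was listed more than once for its sub-peaks, the row with the largest −log10 q-value was kept. That left 79 intervals naming a member of 37456 in experiment 1, 80 of 33841 in experiment 2 and 122 of 46329 in experiment 3. Intervals overlapping by 1 bp or more were joined across lists into regions, and those with peaks from 2 or 3 experiments are called reproducible here. The lowest pileup that a list held was 8, 7 and 9 fragments in experiments 1, 2 and 3, so weaker binding cannot be seen in these lists. The median pileup of members' intervals was 12, 11 and 14 fragments, the same as over all intervals of each list. Read depth per library was not among the values used here.

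Members were covered at most steps of the pathway, and chiefly at promoters. A peak in experiment 1 was assigned to 30 members, with 54.1% of all protein-coding genes as background. Experiment 2 had peaks at 29 members (background 54%) and experiment 3 at 31 (background 60.1%). Of the 29 members with a reproducible region, 27 had 1 in a promoter, defined in the deposited annotation as within 3000 bp of a transcript start, against 38.4% of all protein-coding genes. A region found in all 3 experiments was assigned to 21 members, against 29.8% of genes, and to 13 members when only peaks with a −log10 q-value of at least 3 were used. Reproducible regions outside promoters were assigned to 7 members, against 15.1%. Eno3 was the 1 member with no peak under its symbol in any experiment, a state that held for 28.8% of genes. Since the genes were chosen with earlier results of these lists known, the counts are given as a description and without a test.

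**Figure D1:**
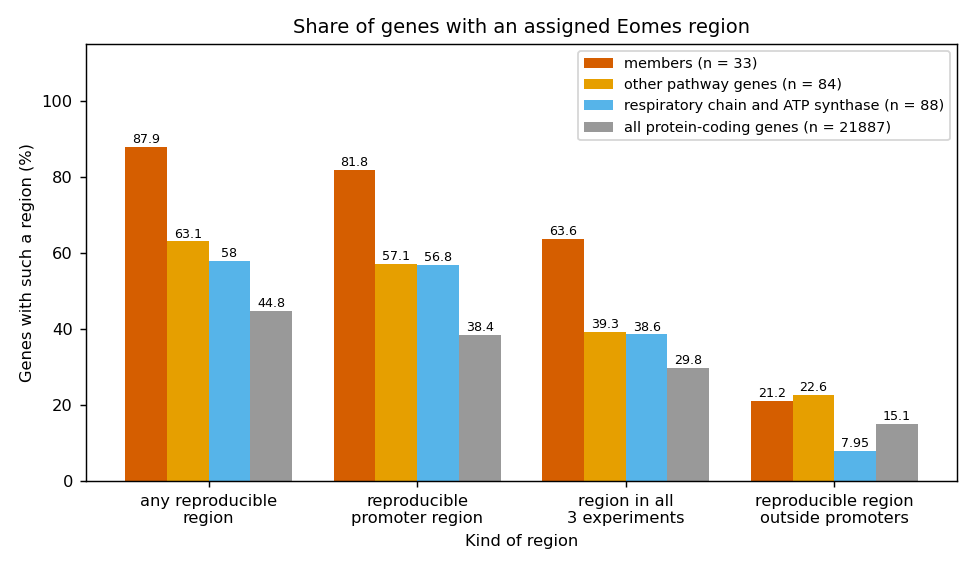
Bars give the percentage of genes with an assigned Eomes region (y axis, 0 to 100%) for 4 kinds of region, in the 33 members, 84 other genes of the same pathways, 88 respiratory chain and ATP synthase genes and all 21887 protein-coding genes. Members stood at 87.9% for any reproducible region, other pathway genes at 63.1%, respiratory chain genes at 58.0% and all genes at 44.8%.

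The coverage of members was set beside a second metabolic list of ubiquitously used genes. Of 88 genes of the respiratory chain and ATP synthase, 51 (58.0%) had a reproducible region and 50 (56.8%) had 1 in a promoter. Of the 84 other genes of sugar and amino acid metabolism, 53 (63.1%) had a reproducible region. Members stood at 87.9% on the same measure, and no test was made of the difference. GC content moved with coverage: the median over 300 bp RefSeq promoter windows was 60.7% for members and 52.7% for all windows. It was 63.3% for those of all windows that lay over a reproducible region. All windows here came from 27025 genes, more than the 21887 protein-coding genes of the coverage counts. The part of GC content in the counts was not tested.

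The peaks of members fell into 182 merged regions, 60 of them reproducible. Regions seen in 1 experiment made up 67.0% of the 182, those seen in 2 made up 15.4% and those seen in 3 made up 17.6%. The same shares over all 84399 regions were 76.2%, 11.6% and 12.2%. Of the 122 member regions seen once, 62 (50.8%) came from experiment 3, which had the longest list, against 41.8% of all regions seen once. Of the 60 reproducible regions, 51 (85%) were in promoters, 5 in intergenic sequence, 2 in introns and 2 in exons. Promoters held 59.1% of all 20126 reproducible regions. The members' regions covered a transcript start in 29 cases (48.3%, against 32.7% of all reproducible regions), and 42 lay within 1000 bp of a start (70%, against 50.9%).

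**Figure D2:**
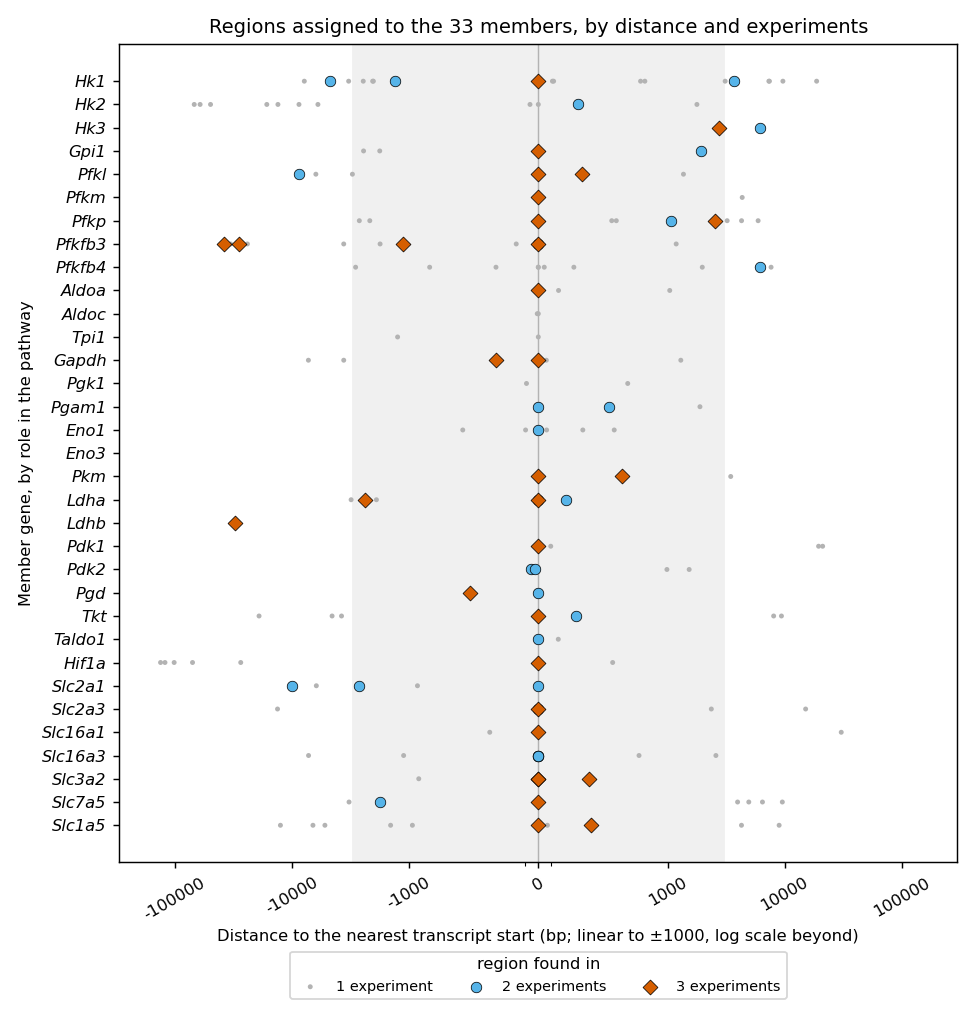
Each marker is 1 merged region at its distance in bp from the nearest transcript start (x axis, linear to ±1000 bp and logarithmic beyond), with 1 row per member. Diamonds were found in 3 experiments, circles in 2 and dots in 1, and the grey band is the promoter class within 3000 bp. Of the 60 reproducible regions 51 lie in the band, and those of Pfkfb3 and Ldhb reach −38266 and −30652 bp.

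By fold and rank, members' regions were not above the rest. The median fold of their reproducible regions was 4.66, and that of all reproducible regions was 4.84. Each peak was also given a percentile, its rank by −log10 q-value within its own list. For a region, the mean over the experiments with a peak was taken. The median of that mean was 59.8 for members' regions and 64.8 for all. Only 3 of the 60 regions (5%) were at the 95th percentile or above, at Hk3, Pfkfb3 and Pkm, against 6.89% of all reproducible regions. At the 90th percentile or above were 4 (6.67%), against 14.3% of all.

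Promoter sequence is shown for 5 genes whose reproducible region lies over the start, to set the summits of the peaks against short motifs. They are examples from 22 members with a promoter window over a reproducible region, and do not show how common a motif was. Of the 29 such windows of members, 4 held the letters GGTGTG (13.8%, against 17.5% of all such windows), 2 of which are those of Slc2a1 and Hk1. Each line is the 250 bp before a RefSeq transcript start (GRCm38.p6, the assembly behind mm10), 5′ to 3′ on the gene's strand. Capitals mark CACGTG, the E-box bound by Myc and related factors, ACGTG, the core of the hypoxia response element bound by Hif1a, which every CACGTG also holds, and GGTGTG, the core of the T-box element bound by Eomes. Both strands were searched, so ACGTG also appears as CACGT and GGTGTG as CACACC.
Ldha: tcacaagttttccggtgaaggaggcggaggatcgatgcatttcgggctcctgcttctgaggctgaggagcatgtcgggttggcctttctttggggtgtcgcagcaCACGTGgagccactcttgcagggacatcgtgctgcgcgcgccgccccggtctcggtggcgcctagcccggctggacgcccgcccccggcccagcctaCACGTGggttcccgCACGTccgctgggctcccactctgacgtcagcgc
Hif1a: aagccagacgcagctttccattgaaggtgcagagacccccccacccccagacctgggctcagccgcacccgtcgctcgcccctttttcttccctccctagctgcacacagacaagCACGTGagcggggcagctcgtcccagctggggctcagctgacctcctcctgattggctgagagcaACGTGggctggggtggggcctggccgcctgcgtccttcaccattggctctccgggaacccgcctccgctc
Slc2a1: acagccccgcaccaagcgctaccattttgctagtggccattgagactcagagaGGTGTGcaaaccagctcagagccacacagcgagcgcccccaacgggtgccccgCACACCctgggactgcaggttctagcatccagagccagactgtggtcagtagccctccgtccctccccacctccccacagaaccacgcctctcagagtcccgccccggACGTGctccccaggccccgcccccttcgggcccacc
Hk1: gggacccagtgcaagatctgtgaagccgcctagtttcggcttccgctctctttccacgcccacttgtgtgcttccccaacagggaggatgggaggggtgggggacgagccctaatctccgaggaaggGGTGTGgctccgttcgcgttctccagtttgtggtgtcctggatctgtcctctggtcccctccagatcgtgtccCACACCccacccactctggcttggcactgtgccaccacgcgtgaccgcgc
Pkm: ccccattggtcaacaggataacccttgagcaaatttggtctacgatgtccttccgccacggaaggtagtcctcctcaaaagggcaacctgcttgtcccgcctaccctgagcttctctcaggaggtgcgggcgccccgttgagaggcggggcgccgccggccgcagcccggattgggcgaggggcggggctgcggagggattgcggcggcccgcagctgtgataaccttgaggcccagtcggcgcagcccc
The Ldha sequence is chr7:46845554-46845803 on the plus strand and that of Hif1a is chr12:73907617-73907866 on the plus strand. The Slc2a1 sequence is chr4:119108495-119108744 on the plus strand, that of Hk1 is chr10:62340422-62340671 on the minus strand, and that of Pkm is chr9:59656326-59656575 on the plus strand.

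At Ldha, E-boxes began at −145 and −48, counted with −1 as the base before the start, and a further ACGTG core began at −34. The summits of the Eomes peaks there were at −30, −25 and −35 in experiments 1, 2 and 3, near that core. Library fragments were 200 to 600 bp long, so a summit does not place Eomes on a given motif. Hif1a had an E-box at −135 and an ACGTG core at −70, and its summits were at −3, −37 and 54. In the Slc2a1 sequence, GGTGTG began at −197 and, on the other strand, at −144, and ACGTG at −36. Its summits were at −91 in experiment 2 and −101 in experiment 3, between those matches. Hk1 had GGTGTG at −123 and −50, while its summits were spread from 112 and 67 in experiments 1 and 2 to −250 in experiment 3. Past the Hk1 start, outside the letters shown, ACGTG began at 8 and 17. The Pkm sequence held none of these motifs, and its summits were at −111, −170 and −170. A downstream Pkm start, not shown, also lay under a region found in all 3 experiments. There ACGTG began at −75 and 9, and the summits were at −154, −79 and −75. A match is a description of letters, and no match says only that the letters are not in the window.

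Over the promoter table, 45 windows of 300 bp (250 bp before to 50 bp after a start) belonged to 30 members, some of them overlapping. Those of Slc7a5, Slc2a3 and Slc1a5 were not among them. A reproducible region overlapped 29 of the 45 windows (64.4%), against 24.2% of all 32851 windows. Those 32851 windows belonged to 27025 genes, more than the 21887 protein-coding genes that form the background of the coverage counts. The shares of all windows given below refer to that larger gene set. The letters ACGTG were in 21 member windows (46.7%, against 19.6% of all windows). Among windows over a reproducible region they were in 16 of 29 for members (55.2%) and in 29.1% of all such windows. The full E-box CACGTG was in 6 member windows (13.3%, against 7.15%). The T-box core GGTGTG was in 8 member windows (17.8%, against 19.0%), and the longer T-box element AGGTGTGA was in none of the 45, against 1.28% of all windows. Overlapping windows of 1 gene share sequence and are not independent.

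All 4 genes of hexose phosphorylation and isomerisation had reproducible promoter regions, with 9 regions in all. The strongest site of the whole group was at Hk3, a hexokinase found mainly in blood cells, at chr13:55017839-55018216. Its pileup was 76, 41 and 68 fragments in experiments 1, 2 and 3, and its fold was 14.2, 12.4 and 14.7. In each experiment both values were the highest among the members' leading regions, and the 3 summits lay within 22 bp. The mean fold was 13.8 ± 1.20 (SD, n = 3), at a percentile of 99.2. This site was in the promoter class at 2729 bp from the start, inside the gene, and a second, weaker site lay in exon 4 with 13 fragments in each of experiments 2 and 3.

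Hk1, the hexokinase that most tissues use, had 4 reproducible regions. Its leading region, chr10:62339992-62340878, covered an alternative start 39042 bp inside the most upstream RefSeq start. The pileup there was 15, 25 and 33 fragments and the fold 2.95, 8.71 and 9.01, so experiment 1 stood well below the other 2. The mean fold of 6.89 ± 3.42 (SD, n = 3) therefore had the widest spread among the leading regions. Hk2, the inducible hexokinase, had 1 reproducible region at 307 bp, seen in experiments 1 and 2 with 11 and 13 fragments. Its fold was 4.73 ± 0.96 (SD, n = 2), and no peak of experiment 3 overlapped it. Experiment 3 had separate Hk2 promoter peaks on either side, with 19 fragments over the start and 12 further inside the gene. Gpi1, glucose-6-phosphate isomerase, had a region over its start with 15, 11 and 25 fragments, a fold of 5.83 ± 1.21 (SD, n = 3) and summits within 12 bp.

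The phosphofructokinase step, which commits sugar to glycolysis, had the most regions of any step, 13 over 5 genes. Pfkfb3 makes fructose 2,6-bisphosphate, the activator of phosphofructokinase, and it had 5 reproducible regions, more than any other member. Its leading region was chr2:11530101-11530498, with 24, 32 and 37 fragments and folds of 6.33, 11.8 and 9.68. The next, chr2:11540357-11540837, had 31, 17 and 29 fragments and a fold of 6.15 ± 1.74 (SD, n = 3). Both were classed as intergenic, at −28087 and −38266 bp from the nearest annotated start, yet both lay inside the RefSeq gene, 23573 and 13234 bp from its most upstream start. The leading fold was 9.29 ± 2.78 (SD, n = 3), with the lowest value in experiment 1.

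The other Pfkfb3 regions lay around an internal start and were weaker. They had folds of 4.86 ± 0.93 (SD, n = 2), 4.77 ± 0.85 (SD, n = 3) and 3.58 ± 1.27 (SD, n = 3). A further reproducible region over the upstream start of Pfkfb3, chr2:11553727-11554148, was listed under the neighbour Rbm17, with 12 fragments in experiment 1 and 26 in experiment 3. Pfkfb4, the related enzyme, had no reproducible promoter region, and its 1 reproducible region was in intron 9 with 13 and 19 fragments in experiments 2 and 3. Promoter peaks of Pfkfb4 were called, but none overlapped between experiments. Around 1 start, from −326 to 274 bp, they had 12 and 13 fragments in experiment 1 and 10 and 8 in experiment 2.

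The platelet isoform gene Pfkp had 3 regions, led by chr13:6633594-6634214 with 28, 18 and 26 fragments. Its fold was 6.80 ± 1.40 (SD, n = 3), and it lay 14846 bp inside the most upstream start, at 2506 bp from an internal one. The region over the upstream Pfkp start was lower, with 13, 16 and 15 fragments. The liver isoform gene Pfkl had regions with folds of 4.57 ± 0.23 and 4.32 ± 0.63 (SD, n = 3 each) near its start and another at −8728 bp, where experiment 2 had 9 fragments and experiment 3 had 25. The muscle isoform gene Pfkm had 1 assigned region with 11, 10 and 23 fragments, highest in experiment 3. Over the upstream end of Pfkm, the region chr15:98092914-98093767 had 19, 15 and 34 fragments and was listed under Senp1, whose start is nearer.

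Coverage was thinnest at the aldolase and triose phosphate steps, where 2 of 5 members had a reproducible region. Aldoa, the main aldolase outside liver and brain, had 15, 12 and 29 fragments over a start, and Gapdh had 11, 9 and 16 fragments at −329 bp. Their folds were 5.41 ± 1.60 and 4.53 ± 0.50 (SD, n = 3 each). The second Gapdh region, over its start, had 14, 7 and 17 fragments, and the value of 7 in experiment 2 is the lowest pileup that list holds. Aldoc, the brain aldolase, had 11 fragments in experiment 1 and 14 in experiment 3 at separate places, so no region was shared. Tpi1, triose phosphate isomerase, had peaks of 12 and 11 fragments in experiment 3 only. Pgk1, phosphoglycerate kinase, had peaks of 14 and 10 fragments in experiment 1 only. It was the 1 member on the X chromosome, which had reproducible regions at 11.0% of its genes, while autosomes had them at 46.9%.

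In lower glycolysis, Pkm, the pyruvate kinase of proliferating cells and muscle, had the second highest leading fold. Its region chr9:59656102-59656846 over the start had 20, 24 and 51 fragments and folds of 7.33, 9.39 and 11.9. Experiment 3 had by far the most fragments, and the mean fold was 9.52 ± 2.26 (SD, n = 3), at a percentile of 95.3. A second Pkm region over a downstream start had 12, 18 and 21 fragments and a fold of 5.32 ± 1.49 (SD, n = 3). Pgam1, phosphoglycerate mutase, and Eno1, the common enolase, had no region in all 3 experiments. The leading Pgam1 region had 13 fragments in experiment 1 and 27 in experiment 3, and that of Eno1 had 13 and 15 in experiments 2 and 3.

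Eno3, the muscle enolase, had no peak under its own symbol, yet 2 regions found in all 3 experiments lay over its gene. One, chr11:70653539-70654800, had 16, 14 and 37 fragments and was listed under Pfn1, and the other, chr11:70655617-70656307, had 13, 16 and 14 fragments and was listed under Gm12319. In all, 8 reproducible regions over 5 members (Eno3, Hk1, Pfkfb3, Pfkm and Slc2a1) were listed under another gene. A peak is assigned to the nearest start, so the symbol does not tell which gene a site acts on.

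**Figure D3:**
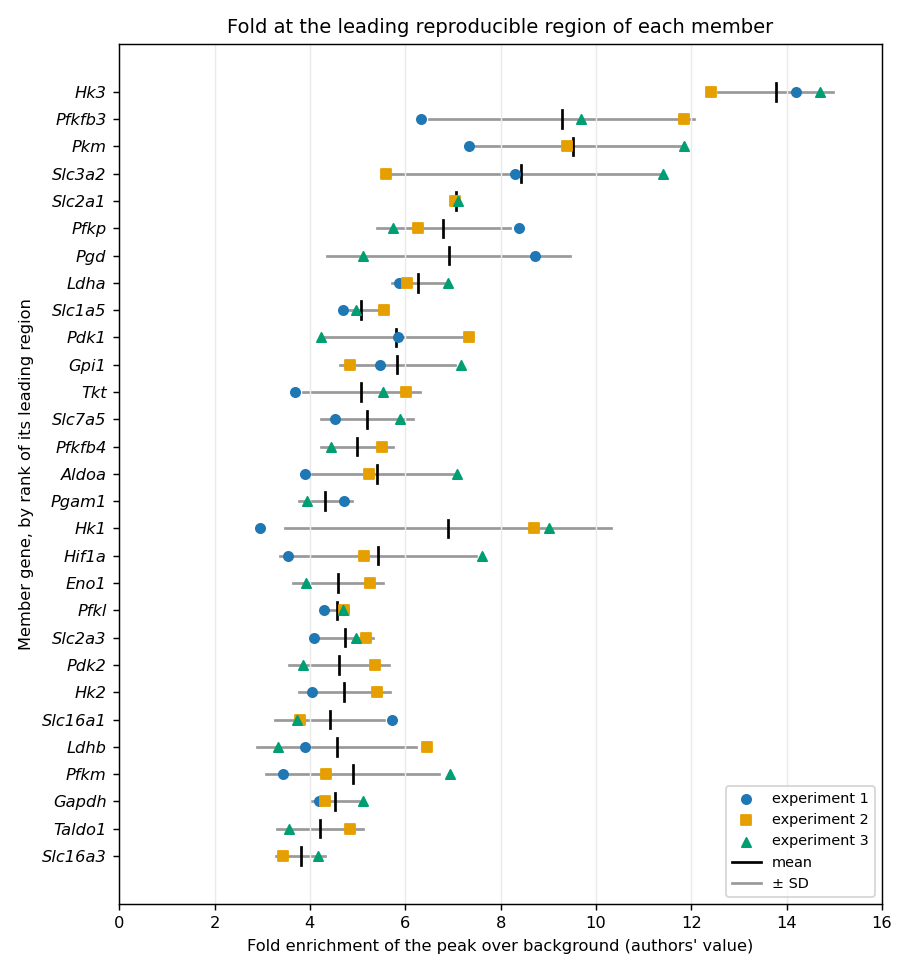
Points give the authors' fold enrichment (x axis) at the leading reproducible region of each of 29 members in each experiment with a peak, black ticks the mean and grey lines the SD. Hk3 lies between 12.4 and 14.7 in all 3 experiments, above the mean of 9.52 of Pkm and 9.29 of Pfkfb3, and the ranges of most other members overlap.

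All 4 genes of lactate and pyruvate fate were covered. Ldha, which makes lactate from pyruvate, had 4 reproducible regions, led by chr7:46845359-46845949 over the start whose sequence is shown above. The pileup there was 19, 13 and 25 fragments and the fold 5.87, 6.03 and 6.89. The 3 folds were close, at 6.26 ± 0.55 (SD, n = 3), and the summits lay within 10 bp of each other. A second Ldha region at −2335 bp had 17, 7 and 21 fragments. Ldhb, the isoform of oxidative tissues, had no promoter region. Its 1 region, chr6:142538609-142538904, was at −30652 bp, with 12, 14 and 14 fragments and a fold of 4.57 ± 1.67 (SD, n = 3).

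Pdk1 and Pdk2 encode kinases that shut pyruvate dehydrogenase and so hold pyruvate back from mitochondria. Pdk1 had 16, 18 and 15 fragments over its start and a fold of 5.81 ± 1.55 (SD, n = 3). The leading Pdk2 region had 15 and 13 fragments in experiments 2 and 3 and none called in experiment 1.

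The pentose phosphate genes Pgd, Tkt and Taldo1 all had promoter regions. Pgd, which makes NADPH, had 26 fragments in experiment 1 and 22 in experiment 3 at chr4:149166626-149167025, with folds of 8.72 and 5.11 and no peak in experiment 2. A weaker Pgd region at −528 bp had 8, 7 and 15 fragments. Transketolase (Tkt) had 19, 15 and 19 fragments over its start, a fold of 5.07 ± 1.23 (SD, n = 3). Transaldolase (Taldo1) had 11 and 13 fragments in experiments 2 and 3.

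Hif1a, the hypoxia-inducible factor that turns on many glycolytic genes, had 1 reproducible region, chr12:73907555-73908114. Its pileup was 13, 11 and 25 fragments and its fold 3.54, 5.14 and 7.61, a mean of 5.43 ± 2.05 (SD, n = 3). The region covered a start 6231 bp inside the most upstream RefSeq start, and 1-experiment peaks of Hif1a lay both near and far from it.

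All 4 sugar and lactate carriers were covered, with 9 regions, but 2 of them had no region in all 3 experiments. Slc2a1, the glucose transporter Glut1, had 16 fragments in experiment 2 and 31 in experiment 3 over its start (chr4:119108434-119109426), and no peak there in experiment 1. The folds of 7.04 and 7.11 nearly coincided. Its other regions, at −2664 and −9941 bp, had 10 to 18 fragments. Inside the Slc2a1 gene, 2 regions found in all 3 experiments were listed under the microRNA gene Mir1957a. One of these, chr4:119127152-119127575, had 21, 12 and 26 fragments.

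Slc2a3, the glucose transporter Glut3, had 11, 11 and 17 fragments over its start, with summits spread over 580 bp, the widest spread of the leading regions. A second Slc2a3 region, 59639 bp into the gene, had 14 fragments in experiment 1 and 22 in experiment 3. Slc16a1 and Slc16a3 export lactate. Slc16a1 had 16, 8 and 19 fragments and a fold of 4.41 ± 1.14 (SD, n = 3). Slc16a3 had 3 promoter regions, 2 of them over a start and the leading one at −2 bp from a start, and all were seen in experiments 2 and 3 only. Its leading fold of 3.81 ± 0.51 (SD, n = 2) was the lowest among the 29 members.

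The amino acid carriers each had a region in all 3 experiments. Slc3a2 (CD98 heavy chain) pairs with the light chain Slc7a5 to import leucine and other large neutral amino acids. The leading Slc3a2 region, chr19:8722928-8723481, had 26, 17 and 42 fragments and folds of 8.30, 5.60 and 11.4. The values of the 3 experiments spread widely around a mean of 8.43 ± 2.90 (SD, n = 3). Slc3a2 had 2 more regions around an internal start, both seen in all 3 experiments.

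For Slc7a5 the region over the upstream start had 13, 12 and 22 fragments and a fold of 4.91 ± 0.60 (SD, n = 3). A region at −1749 bp from an internal start ranked slightly higher, with 13 fragments in experiment 1 and 23 in experiment 3. Its mean percentile was 75.5 against 72.0, but the lack of a peak in experiment 2 did not enter that mean. Slc1a5, the glutamine carrier, had 15, 20 and 30 fragments over its start and a fold of 5.07 ± 0.44 (SD, n = 3). A second region at 406 bp had 13, 11 and 19 fragments, with every value above the smallest pileup of its list.

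**Figure D4:**
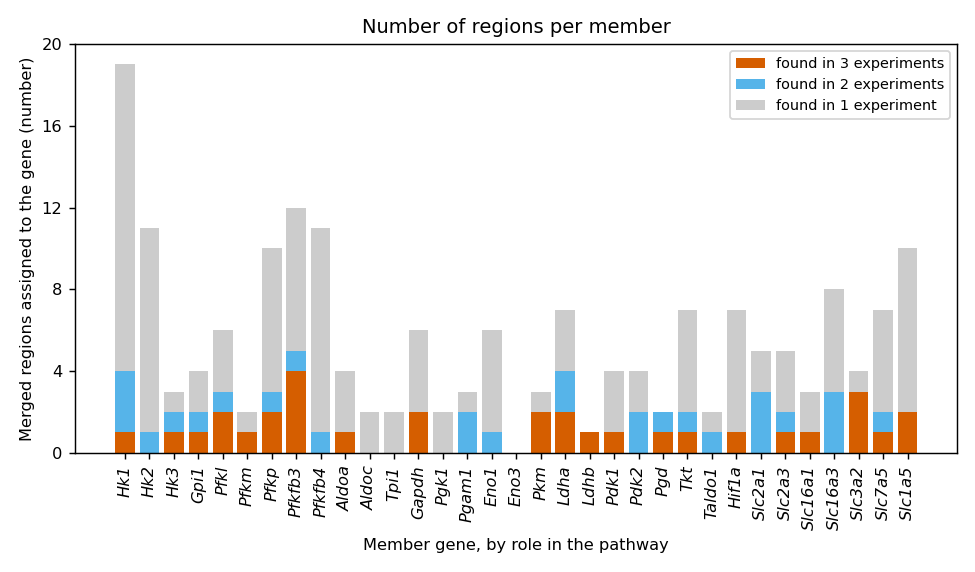
Stacked bars give the number of merged regions (y axis) assigned to each of the 33 members, split by whether peaks came from 3, 2 or 1 of the experiments. Pfkfb3 has the most reproducible regions (5), Eno3 has no region, and all regions of Aldoc, Tpi1 and Pgk1 were seen once.

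Several members carried more than 1 reproducible region. The median covered member had 2 reproducible regions and the median covered gene had 1. Of the 29 covered members, 19 (65.5%) had at least 2 regions, against 35.9% of covered genes, and 8 (27.6%) had at least 3, against 15.0%. Library fragments were 200 to 600 bp long, and some regions of the same gene lay closer together than that. At Pkm the leading region ended at chr9:59656846 and the next began at chr9:59656950. The counts are therefore of regions and not of separate binding sites. The leading regions as a group were of ordinary strength, with a median percentile of 72.0 against 72.8 for all covered genes. They lay in promoters for 26 members and over a start for 18. The 3 others were those of Pfkfb3, Pfkfb4 and Ldhb.

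Agreement between experiments was measured at the 19 leading regions found in all 3. The SD of the fold was 24.2% of its mean at the median region, and 22.3% over all 10328 regions found in all 3 experiments. The highest pileup came from experiment 3 at 14 of the 19, and over all such regions from experiment 3 in 85.4%, with ties counted for the earlier experiment. Summits of the leading regions lay within 91 bp of each other at the median, from 10 bp at Ldha to 580 bp at Slc2a3, and within 60 bp at the median over all regions found in all 3 experiments. With values for only 2 or 3 experiments, most neighbours in the order of folds below Hk3 did not differ beyond their spread.

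Promoter regions were not always at the most upstream start. Of the 51, 19 in 12 members lay over 3000 bp from the most upstream RefSeq start of the gene, all of them inside the gene except the Ldha region at −2335 bp from its nearest annotated start. They included the leading regions of Hk1, Hk3, Hif1a, Ldha, Pfkm, Pfkp and Slc7a5. In all, 53 of the 60 reproducible regions lay inside the RefSeq gene and 7 upstream of it.

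Other genes of the same pathways were read from 7 lists of 84 genes. Among other isozymes of glycolysis 5 of 17 had a reproducible region, led by Adpgk, an ADP-dependent glucokinase, with 20, 29 and 32 fragments. Gluconeogenesis and glycerol 3-phosphate genes were covered in 8 of 9 cases. Gpd2, the mitochondrial glycerol phosphate dehydrogenase, led them with 19, 28 and 45 fragments and a fold of 9.10 ± 3.60 (SD, n = 3). The genes of pyruvate entry to mitochondria were covered in 6 of 11 cases, with folds of 6.36 ± 0.74 and 6.53 ± 0.91 (SD, n = 3 each) at Mpc2 and Mpc1, the subunits of the pyruvate carrier.

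Of 6 other pentose phosphate enzymes 4 were covered, and H6pd, the hexose phosphate dehydrogenase of the endoplasmic reticulum, had 28, 35 and 58 fragments and 5 regions. Its fold of 11.2 ± 2.48 (SD, n = 3) was above that of every member but Hk3. Other sugar and lactate carriers were covered in 8 of 12 cases, led by Slc16a6 with 21, 22 and 46 fragments. Other amino acid and iron carriers were also covered in 8 of 12, with Slc38a2, a neutral amino acid carrier, at 20, 23 and 28 fragments.

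Among regulators of glycolysis and uptake 14 of 17 had a reproducible region. Foxk1, a forkhead factor, had 47, 26 and 59 fragments at chr5:142371155-142371740, at −29766 bp, and a fold of 10.7 ± 1.30 (SD, n = 3). Myc, which drives growth and glucose use, had 27, 23 and 43 fragments over its start and a fold of 8.66 ± 3.23 (SD, n = 3). Arnt, the partner of Hif1a, had 19, 21 and 31 fragments over its start.

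Some members had no region in all 3 experiments, so their coverage depended on which experiments were kept. A region of 2 experiments is lost when either is left out. Without experiment 1, 28 members had a region in both other experiments, and Hk2 was lost. Without experiment 2 there were 23, and Eno1, Hk2, Pdk2, Pfkfb4, Slc16a3 and Taldo1 were lost. Without experiment 3 there were 22, and Eno1, Pdk2, Pfkfb4, Pgam1, Slc16a3, Slc2a1 and Taldo1 were lost. Coverage of all protein-coding genes was 37.4%, 36.0% and 31.0% under the same rule.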

How the data were processed

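Eomes ChIP-seq libraries and inputs from 3 experiments were processed by the authors into 1 peak list per experiment, so peaks were called per sample and not on pooled samples. Per the submitters' processing notes the build was mm10, with Novoalign and ChIPseeker but no versions. The peak caller was not named in the sources used here. Each deposited row held a pileup (a coverage signal), a fold (a ratio to background), a −log10 p-value and a −log10 q-value, all computed by the authors, and an annotation with the distance to a start. The smallest deposited −log10 q-value was 1.31. Starts may be shifted by 1 bp.

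Sub-peak rows were collapsed, and intervals sharing at least 1 bp merged with Python 3.11.15 and pandas 2.3.3. Merging was tested on simulated intervals, and with bedtools 2.31.1 it gave the same 20126 reproducible regions. A gene was covered when a peak of a reproducible region named it, matched on the symbol or an unambiguous synonym, in a table of 21887 protein-coding genes (RefSeq, GRCm38.p6). The leading region had the highest mean percentile of −log10 q-value over the experiments with a peak, so a missing peak did not lower its rank. Members and lists were chosen with earlier results of these data known, and every member is named. Separate experiments are replicates, and mean ± SD covers the experiments with a peak. No test was made: the lists hold no values where no peak was called. Alternatives were a −log10 q-value of at least 3, an overlap of 100 bp, promoters within 1000 bp, gene bodies in place of symbols, and leaving out each experiment.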

Additional observations from a re-analysis of the deposited data

How the results depend on the processing

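Of the 6 counts and shares reported, the members with a reproducible region and with a reproducible promoter region stayed within 1.5 times their value under every alternative tried. The promoter share of members' reproducible regions fell only when promoters were counted within 1000 bp. With only peaks of −log10 q-value at least 3, members with a region in all 3 experiments fell from 21 to 13 and members with no peak rose from 1 to 2. Counting promoters within 1000 bp gave a promoter share of 70% in place of 85%. Leaving out each experiment in turn gave 22 to 28 members with a reproducible region, 21 to 26 with a promoter region, 35 to 48 reproducible regions, a promoter share of 86.8% to 88.6%, and 1 to 2 members with no peak. The count in all 3 experiments has no such value. Coverage of members was 28 with −log10 q-value at least 3 (Slc16a3 lost; all genes 36.5%), 28 with 100 bp shared (Hk2 lost; all genes 42.9%) and 29 over gene bodies (Ldhb lost, Eno3 gained; all genes 47.4%). The mean over sub-peaks moved the fold of 2 of the 29 leading regions by more than the SD. Leaving out experiment 1 gave a fold of 8.86 in place of 6.89 at Hk1 and of 5.11 in place of 6.91 at Pgd. No paired analysis was possible because the lists hold no separate values for input libraries, which enter only through the authors' fold and scores. The lists hold no site under 7 to 9 fragments, so weaker binding is not in any count. Whether read depth set that limit was not tested.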
